A study of Bos taurus with 34 samples.

Results

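Of the 27570 genes in the count table of plasma small RNA, 3 miRNAs of the miR-2284 and miR-2285 families were examined. They were bta-mir-2285t (ENSBTAG00000048656), bta-mir-2285z (ENSBTAG00000054863) and bta-mir-2284y (ENSBTAG00000051839), taken by these identifiers with earlier results of the same data known. All 3 were among the 1086 plasma genes counted at over 1 CPM (a gene's counts scaled to the same total in every library) in 5 or more libraries.

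Plasma and peripheral white blood cells (PWBC) came from blood drawn at the time of artificial insemination (AI) from 17 Angus-Simmental crossbred heifers. All heifers had undergone the same estrous synchronization, were inseminated with semen from the same sire and were later exposed to bulls. Heifers were grouped by an outcome recorded after the blood was drawn, as having conceived by AI (AI-preg, n = 6), by a bull (NB-preg, n = 6) or not at all (non-pregnant, n = 5), and each gave 1 plasma and 1 PWBC library. Reads counted on genes ranged from 1073910 to 17024777 per plasma library and from 4184999 to 67192941 read pairs per PWBC library, and PWBC depth was lowest in the non-pregnant group (median 8175887).

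A miRNA is a short RNA cut from a hairpin precursor. It guides Argonaute proteins to mRNAs that match its 5′ end, the seed, and those mRNAs are then translated less or degraded. The miR-2284 and miR-2285 families are known from cattle and other ruminants, where they hold many related hairpins spread over the genome, and their members have been detected in many bovine tissues.

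The size of the family bears on how its reads can be counted. RefSeq's annotation of the assembly ARS-UCD2.0 names 191 genes of both families among its 1032 miRNA genes (18.5%), 43 of them MIR2284 and 148 MIR2285, on 30 chromosomes. MIR2285T and MIR2285Z each have 1 copy in it, whereas MIR2284Y has 7. The deposited identifier of bta-mir-2284y stands for a single gene, and the sources used here do not tell which copy it is. MIR2285T lies within FCGR2B, which encodes an inhibitory Fc receptor of B cells and myeloid cells. MIR2285Z lies within SREK1, a splicing regulator gene, and overlaps another hairpin of the family, MIR2285Q. Of the 191 genes, 125 (65.4%) overlap a protein-coding gene and 13 (6.81%) another miRNA gene. The authors removed reads with several alignments and counted plasma reads without regard to strand. Reads that identical copies share were therefore not counted. Where genes overlap, reads could not be assigned by strand, and the study's code set no option to count a read for more than 1 gene.

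The members were among the least counted of the 119 miRNAs that the study's supplementary tables list, called the named miRNAs here. Over the 17 libraries, bta-mir-2285t held 230 reads in all and 1 to 62 per library, bta-mir-2285z 621 reads and 1 to 102 per library, and bta-mir-2284y 96 reads and 1 to 18 per library. Ordered by mean CPM among these 119 miRNAs, they were at places 107, 90 and 116, with means of 2.41, 5.83 and 0.916 CPM against a median of 56.7 CPM. The study kept more plasma miRNAs than these 119, so the places are not among all of them. They are orders of read counts, since lengths were not used.

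A single gene, ENSBTAG00000037264, set the scale of these values. It held 718538 to 14887453 reads per plasma library, although the study's methods state that duplicate reads were left out. Removal of duplicates by start position could not leave so many single reads on 1 gene, so plasma duplicates were not all left out by that rule. The methods do not state how duplicates were marked. Where copies of 1 molecule were counted more than once, the counting intervals and the index of dispersion used here are not those of independent molecules. The gene took between 49.7 and 92.6% of the counts of a plasma library. Its mean share was 68.0 ± 12.9% (SD, n = 6) in AI-preg, 78.1 ± 13.6% (SD, n = 6) in NB-preg and 79.9 ± 11.6% (SD, n = 5) in non-pregnant heifers, and the groups overlapped (exact permutation tests, two-sided p = 0.147 for AI-preg and 0.820 for NB-preg against non-pregnant, and 0.212 for AI-preg against NB-preg). Without NB-preg heifer 93, whose share of 51.6% was the lowest of its group, the difference between AI-preg and NB-preg was -15.4 percentage points (exact permutation p = 0.0368). Of the 12 fits of this contrast without 1 heifer, only this 1 had a p under 0.05. In the others the exact permutation p ran from 0.108 to 0.405. Leaving this gene out of the total raised the CPM of every other gene by a factor of 1.99 to 13.5, which differed between heifers. Each abundance of the members is therefore given with ENSBTAG00000037264 in the total and with it left out.

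The abundance of bta-mir-2285t was highest in AI-preg and lowest in non-pregnant heifers by the group medians. With ENSBTAG00000037264 in the total, it had 0.111, 0.470, 0.522, 0.820 and 1.97 CPM in non-pregnant heifers 94, 107, 113, 115 and 101. The AI-preg heifers ran from 1.02 CPM in heifer 114 to 9.34 CPM in heifer 120, with a median of 3.26 CPM. The NB-preg heifers ran from 0.497 CPM in heifer 111 to 5.23 CPM in heifer 93, with a median of 1.58 CPM. Of the AI-preg heifers, 4 of 6 lay above every non-pregnant heifer, and the remaining heifers, 92 and 114, lay below non-pregnant heifer 101. Non-pregnant heifer 94 rested on 1 read, whose exact Poisson 95% interval spans 0.0028 to 0.616 CPM.

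**Figure D1:**
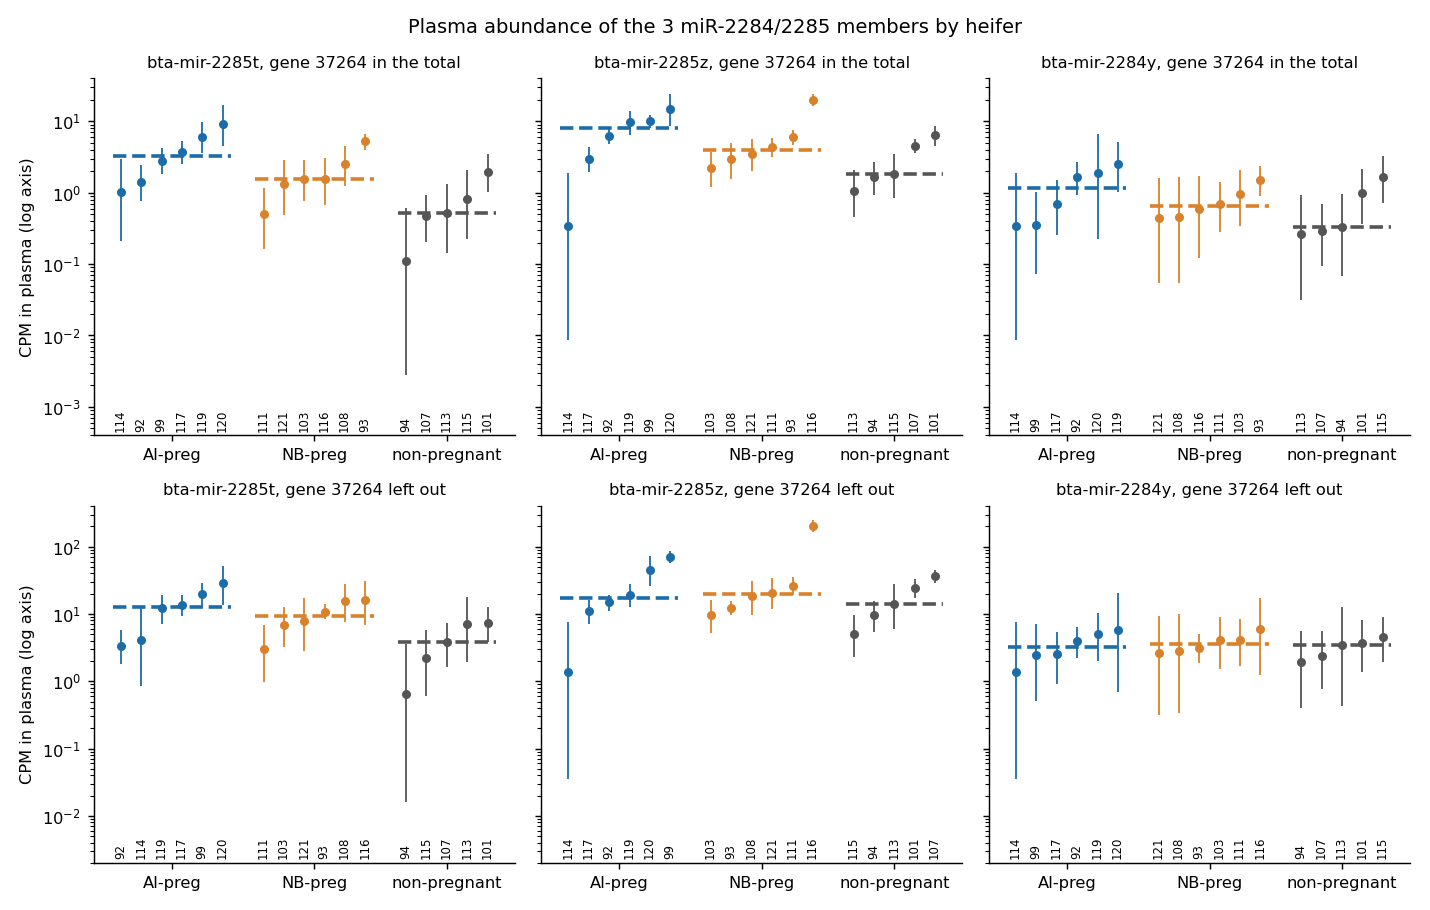
CPM of the 3 members in each plasma library (log axis), with ENSBTAG00000037264 in the total (upper row) and left out of it (lower row). Points are heifers (numbers at the foot), ordered by value within a group, vertical bars are exact Poisson 95% intervals of the counts and dashed lines are group medians; the medians of bta-mir-2285t fall from 3.26 CPM in AI-preg to 0.522 CPM in non-pregnant heifers, and NB-preg heifer 116 stands at 202 CPM of bta-mir-2285z in the lower row.

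The order of the medians of bta-mir-2285t was the same with ENSBTAG00000037264 left out of the total, at 12.8 CPM in AI-preg, 9.31 CPM in NB-preg and 3.77 CPM in non-pregnant heifers. The non-pregnant values were then 0.639, 2.25, 3.77, 7.02 and 7.36 CPM, and the AI-preg values ran from 3.38 to 28.4 CPM. AI-preg heifers 92 and 114, at 3.38 and 4.15 CPM, again lay inside the non-pregnant range.

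Between groups, 0 of 1086 plasma genes (percent called: 0) passed an adjusted p of 0.05 in any of the 3 contrasts, by edgeR's quasi-likelihood test with Benjamini-Hochberg adjustment. At an unadjusted p under 0.05, 75 genes (6.91%) were found for AI-preg against non-pregnant, 16 (1.47%) for NB-preg against non-pregnant and 32 (2.95%) for AI-preg against NB-preg. These numbers moved with single heifers. For AI-preg against non-pregnant they were 158 and 114 without heifers 115 and 99, and 35, 40, 41 and 47 without heifers 113, 94, 107 and 119. For NB-preg against non-pregnant it was 45 without heifer 115. For AI-preg against NB-preg they were 87 without heifer 93, and 17, 19 and 19 without heifers 120, 119 and 111. In the table without ENSBTAG00000037264 and with all heifers, the numbers were 41 (3.78%), 33 (3.04%) and 28 (2.58%). DESeq2 and the likelihood ratio test of edgeR each called 1 gene (0.0921%) for AI-preg against non-pregnant. Without the filter on low counts, 2 of 14280 genes (0.014%) were called for AI-preg against non-pregnant and 2 for AI-preg against NB-preg. None of these was a member.

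The largest difference of a member was that of bta-mir-2285t between AI-preg and non-pregnant heifers. Its log2 fold change was 2.34 ± 0.88 (SE), with an unadjusted p of 0.0122 and an adjusted p of 0.552 by edgeR's quasi-likelihood test. It was the 24th smallest p of the 1086 genes. In this contrast the median log2 fold change of all plasma genes was 0.82, so that bta-mir-2285t lay 1.52 above it. Leaving out ENSBTAG00000037264, the median of all genes was 0.17 and the log2 fold change of bta-mir-2285t 1.67 ± 0.73 (SE; edgeR, adjusted p = 0.992), which was 1.50 above that median. A change of the total rescales all genes of a library together, so this distance was bound to move little and tests nothing about the member.

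Against non-pregnant heifers, NB-preg heifers had a log2 fold change of bta-mir-2285t of 1.47 ± 0.85 (SE), or 1.25 ± 0.73 (SE) with ENSBTAG00000037264 left out. Between AI-preg and NB-preg heifers it was 0.87 ± 0.79 (SE), or 0.42 ± 0.66 (SE). All 3 contrasts of this member kept a positive sign under each scaling and in each fit without 1 heifer. No adjusted p of these contrasts was under 0.05.

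The abundance of bta-mir-2285z was set apart by single heifers rather than by groups. With ENSBTAG00000037264 in the total, the non-pregnant values were 1.04, 1.66, 1.84, 4.53 and 6.40 CPM in heifers 113, 94, 115, 107 and 101. AI-preg heifers ran from 0.338 CPM in heifer 114, on 1 read, to 14.9 CPM in heifer 120 (median 7.98 CPM), and NB-preg heifers from 2.21 CPM in heifer 103 to 20.2 CPM in heifer 116 (median 3.96 CPM). The lowest and the highest of all 17 heifers were thus both pregnant, and the groups overlapped throughout. On the scale without ENSBTAG00000037264, NB-preg heifer 116 reached 202 CPM on 102 reads, whereas the other NB-preg heifers lay between 9.53 and 26.1 CPM. AI-preg heifer 99 followed with 70.5 CPM and AI-preg heifer 120 with 45.5 CPM.

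The sign of the difference between AI-preg and NB-preg heifers in bta-mir-2285z turned with the scale. It was 0.16 ± 0.79 (SE) in log2 fold change with ENSBTAG00000037264 in the total and -0.82 ± 0.80 (SE) with it left out, and it was also negative with TMM factors (-0.70), with DESeq2 (-0.80) and over the named miRNAs alone (-0.46). Against non-pregnant heifers it was 1.23 ± 0.85 (SE) in AI-preg and 1.07 ± 0.84 (SE) in NB-preg heifers. On the scale without ENSBTAG00000037264 these were 0.58 ± 0.85 and 1.40 ± 0.86 (SE), and with TMM factors 0.27 and 0.98, so that the order of both contrasts turned. With ENSBTAG00000037264 in the total, the value of NB-preg was 0.30 without NB-preg heifer 116 and at most 1.51 in any other fit without 1 heifer.

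The reads of bta-mir-2284y were few and even. With ENSBTAG00000037264 in the total, the non-pregnant heifers had 0.261, 0.294, 0.332, 0.985 and 1.64 CPM. AI-preg heifers had 0.338 to 2.51 CPM (median 1.17 CPM) and NB-preg heifers 0.442 to 1.52 CPM (median 0.645 CPM). The medians were even closer on the scale without ENSBTAG00000037264, at 3.21 CPM in AI-preg, 3.61 CPM in NB-preg and 3.51 CPM in non-pregnant heifers, where all 17 values lay between 1.38 and 5.95 CPM. The log2 fold changes between groups were 0.79 ± 0.89, 0.23 ± 0.86 and 0.56 ± 0.84 (SE) for AI-preg against non-pregnant, NB-preg against non-pregnant and AI-preg against NB-preg. Without ENSBTAG00000037264 they were 0.10 ± 0.66, 0.23 ± 0.66 and -0.13 ± 0.63 (SE). Depth limits this member most, since no library held over 18 reads of it.

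**Figure D2:**
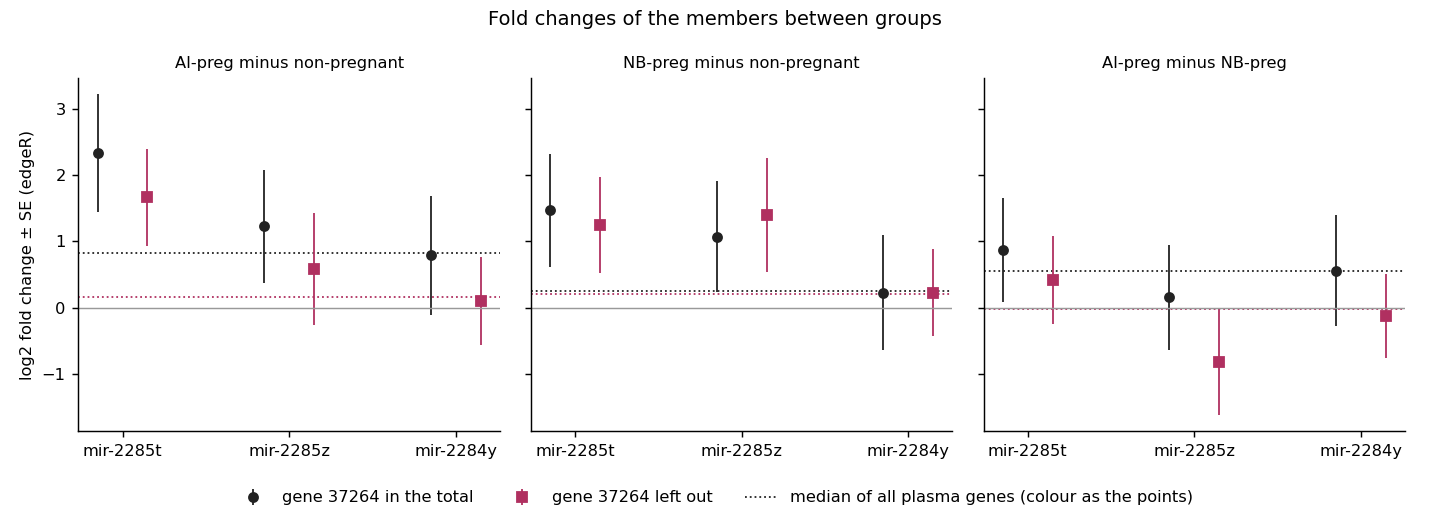
Log2 fold changes of the 3 members (points) with 1 SE (vertical bars) in the 3 contrasts, from edgeR's quasi-likelihood fit with ENSBTAG00000037264 in the table (black circles) and left out of it (red squares). Dotted lines give the median log2 fold change of all plasma genes in the same fit, which is 0.82 and 0.17 for AI-preg against non-pregnant heifers, where bta-mir-2285t stands at 2.34 and 1.67.

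The members differed in how far their counts departed from a constant share of the library. An index was computed as the chi-square of the counts about one CPM for all 17 heifers, divided by its degrees of freedom, so that 1 stands for counting error alone. With ENSBTAG00000037264 in the total, the index was 12.6 for bta-mir-2285t, 24.6 for bta-mir-2285z and 2.99 for bta-mir-2284y, against a median of 10.5 over all plasma genes. With it left out, the index was 6.52 and 63.9 for the miR-2285 members and 0.488 for bta-mir-2284y, against a median of 7.61. No plasma gene had a lower index than bta-mir-2284y on that scale. For a gene that varies beyond counting error, this index grows with the number of reads, and genes were not matched by reads. bta-mir-2284y held 96 reads in all, against 230 for bta-mir-2285t and 621 for bta-mir-2285z. The order of the members and the place of bta-mir-2284y thus do not compare variation at equal depth. The counts of bta-mir-2284y varied between heifers by no more than reads drawn at a constant rate from the other plasma genes would. Variation of bta-mir-2284y itself was not detectable at this depth.

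Across the 17 heifers, log2(CPM + 1) of each member was set against that of the others, the share of ENSBTAG00000037264 and the log2 plasma total, which made 9 relations. These were tested with 100000 permutations (two-sided) and adjusted over the 9. The strongest was that of bta-mir-2284y with the share of ENSBTAG00000037264, with a Pearson's r of -0.894 (permutation p = 3e-05, adjusted 0.00027) and a Spearman's rho of -0.814 (permutation p = 0.0002, adjusted 0.0018). The r was -0.857 without heifers 119 and 93, the farthest in share, -0.906 within AI-preg heifers (exact permutation p = 0.0125) and -0.903 within NB-preg heifers (exact permutation p = 0.0222). The CPM and the share have the same total as denominator. bta-mir-2284y exceeded 1 CPM, the limit of the filter, only in heifers 119, 93, 92, 115 and 120. These had the 5 lowest shares (49.7, 51.6, 57.6, 63.5 and 67.1%), and the filter asked for 5 libraries. The member was thus kept only through libraries with a low share. A negative r was favoured in advance, so this r and its p are a description and no evidence of a link. With ENSBTAG00000037264 left out of the total of the CPM, r was -0.276 (permutation p = 0.286, adjusted 0.368).

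Most plasma genes went down with this share. The median r over the other 1085 plasma genes was -0.526 and 97.0% of them were negative, and r of bta-mir-2284y was lower than that of all but 0.461% of genes. Since bta-mir-2284y passed the filter only where this share was low, its place among the genes was favoured in advance. For bta-mir-2285t, r with the share was -0.584 (permutation p = 0.0143, adjusted 0.0330; rho -0.473, adjusted permutation p = 0.104), near the median of all genes. It was -0.354 without heifers 119 and 93, -0.285 within AI-preg (exact permutation p = 0.578) and -0.770 within NB-preg heifers (exact permutation p = 0.114), and -0.0571 over 17 heifers with ENSBTAG00000037264 left out. For bta-mir-2285z it was -0.190 (permutation p = 0.465, adjusted 0.471), higher than for 90.8% of genes, and 0.328 (permutation p = 0.202) with ENSBTAG00000037264 left out.

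**Figure D3:**
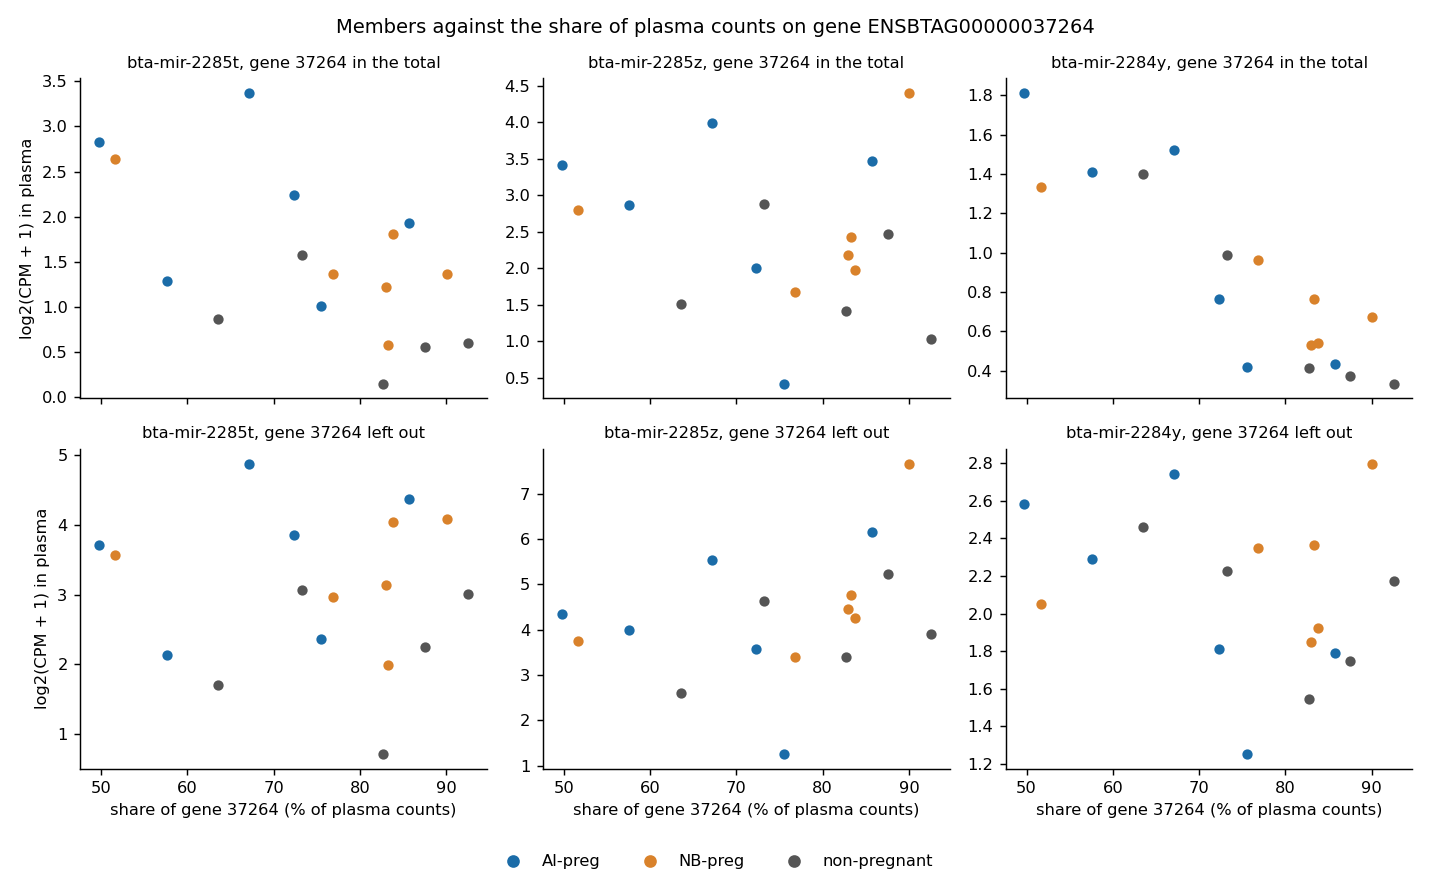
Log2(CPM + 1) of each member (y axis) against the percentage of plasma counts on ENSBTAG00000037264 (x axis), 1 point per heifer, coloured by group. With that gene in the total (upper row) bta-mir-2284y falls along the share (r = -0.894), and with it left out (lower row) the r is -0.276.

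Between the members, bta-mir-2285t and bta-mir-2284y had an r of 0.626 (permutation p = 0.00675, adjusted 0.0304; rho 0.600, adjusted permutation p = 0.0388). For bta-mir-2285t and bta-mir-2285z it was 0.580 (permutation p = 0.0147, adjusted 0.0330; rho 0.596, adjusted permutation p = 0.0388). For bta-mir-2285z and bta-mir-2284y it was 0.426 (permutation p = 0.0875, adjusted 0.131; rho 0.480, adjusted permutation p = 0.104). Neither of the first 2 relations held without heifers 119 and 120, the farthest in bta-mir-2285t, where r was 0.364 and 0.399. Without each of heifers 119, 120, 94 and 113 alone, the adjusted permutation p of either relation was over 0.05. Within AI-preg heifers, r was 0.599 (exact permutation p = 0.210) and 0.732 (exact permutation p = 0.1), and within NB-preg heifers 0.604 (exact permutation p = 0.222) and 0.0625 (exact permutation p = 0.867).

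With ENSBTAG00000037264 left out of the total, none of the relations between members passed. The r was 0.346 for bta-mir-2285t with bta-mir-2284y (adjusted permutation p = 0.302), 0.524 for bta-mir-2285t with bta-mir-2285z (adjusted permutation p = 0.185) and 0.497 for bta-mir-2285z with bta-mir-2284y (adjusted permutation p = 0.185). The last was -0.0284 without heifers 116 and 114, the highest and lowest in bta-mir-2285z. With the log2 plasma total, r was -0.529 for bta-mir-2285t (permutation p = 0.0284, adjusted 0.0511), and -0.136 without heifers 120 and 107, the farthest in total. It was -0.189 for bta-mir-2285z (permutation p = 0.471, adjusted 0.471) and -0.396 for bta-mir-2284y (permutation p = 0.115, adjusted 0.148).

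The study's list of coexpressed miRNA and mRNA pairs joins the members to 7 PWBC genes, which were chosen by their r on these same heifers. Their correlations are therefore given as a description without a test, on both scales. For bta-mir-2285z the genes are SAYSD1, whose protein acts in protein translocation at the endoplasmic reticulum, FBXO15, an F-box protein of ubiquitin ligases, RUFY2, a protein of endosomes, and HACD3, a dehydratase in very long chain fatty acid synthesis. For bta-mir-2285t they are GNPNAT1, an enzyme of the pathway to UDP-N-acetylglucosamine, and VNN2, a surface protein of neutrophils. For bta-mir-2284y it is SCN11A, a voltage-gated sodium channel of sensory neurons.

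The pair of bta-mir-2285z and SAYSD1 moved least of the 7 when ENSBTAG00000037264 was left out of the total. Its r over 17 heifers was -0.913 with ENSBTAG00000037264 in the total and -0.860 with it left out, and the latter was -0.801 without heifers 114 and 94. On the scale without that gene it was -0.935 within AI-preg and -0.828 within NB-preg heifers. Leaving out either heifer at the ends of the relation, 114 or 116, gave an r of -0.885 or -0.890 with that gene in the total. NB-preg heifer 116, with the most bta-mir-2285z, had 0 SAYSD1 read pairs, which at its depth allows up to 0.469 CPM. AI-preg heifer 114, with 1 read of bta-mir-2285z, had the most SAYSD1, at 354 read pairs or 23.1 CPM. In the other heifers SAYSD1 ran from 0.880 CPM in AI-preg heifer 99 to 11.6 CPM in non-pregnant heifer 94.

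FBXO15 was likewise at 0 read pairs in NB-preg heifer 116 and at most 2.79 CPM in any heifer. Its r with bta-mir-2285z was -0.882, and -0.769 with ENSBTAG00000037264 left out. With TMM in both tables it was -0.824, against -0.805 for SAYSD1. Of the positive partners, RUFY2 had an r of 0.833 with ENSBTAG00000037264 in the total and 0.624 with it left out. For HACD3 these were 0.844 and 0.736. Within NB-preg heifers and with ENSBTAG00000037264 left out, RUFY2 had an r of 0.352 and HACD3 of 0.522, against 0.930 and 0.955 within AI-preg heifers.

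**Figure D4:**
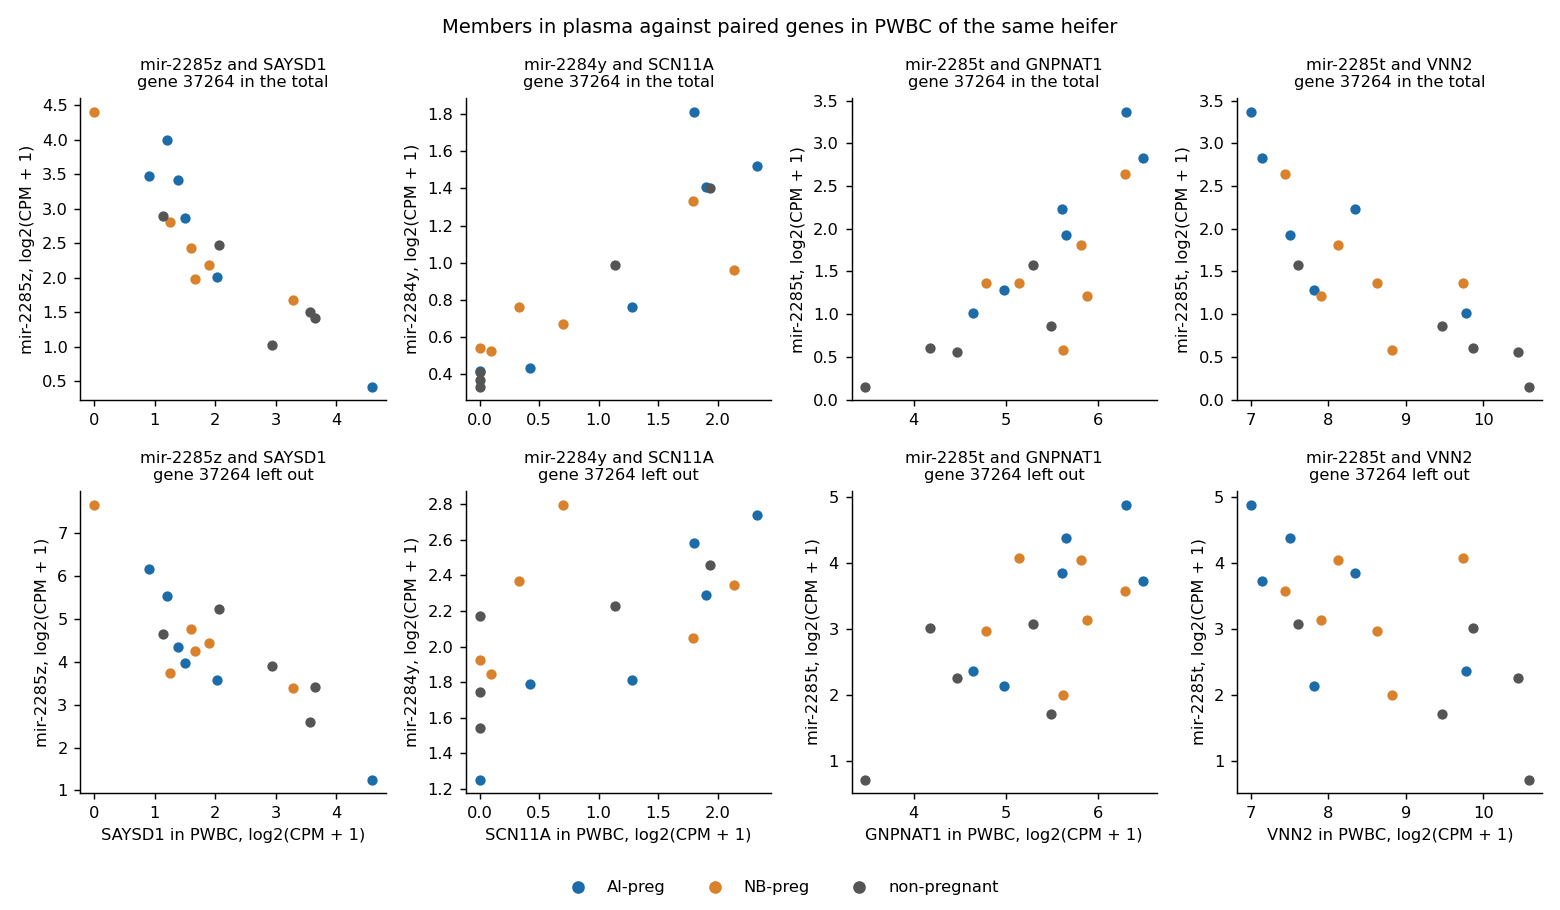
Log2(CPM + 1) of a member in plasma (y axis) against log2(CPM + 1) of a paired gene in PWBC (x axis), 1 point per heifer, coloured by group, for 4 of the 7 pairs, with ENSBTAG00000037264 in the plasma total (upper row) and left out (lower row). The points of bta-mir-2285z and SAYSD1 keep their slope in the lower row (r = -0.860), while those of bta-mir-2284y and SCN11A spread out (r = 0.632).

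For bta-mir-2285t, r with GNPNAT1 was 0.809 and r with VNN2 was -0.830, and they were 0.670 and -0.647 with ENSBTAG00000037264 left out. On the latter scale r was 0.0858 and 0.0127 within NB-preg heifers, and 0.798 and -0.646 within AI-preg heifers. VNN2 ran from 127 to 875 CPM in AI-preg, from 173 to 854 CPM in NB-preg and from 195 to 1533 CPM in non-pregnant heifers. GNPNAT1 ran from 24.0 to 88.7 CPM in AI-preg, from 26.6 to 77.2 CPM in NB-preg and from 10.1 to 44.0 CPM in non-pregnant heifers. Both genes thus overlapped between the groups.

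SCN11A tracked bta-mir-2284y and also the share of ENSBTAG00000037264. Its r with bta-mir-2284y was 0.896, and 0.632 with ENSBTAG00000037264 left out of the total. On the latter scale the counts of bta-mir-2284y varied no more than counting error alone (index 0.488). The r of SCN11A with the share itself was -0.773 over 17 heifers and -0.777 without heifers 119 and 93, and none of the 10942 PWBC genes had a lower r with the share (median -0.0402). The study chose SCN11A by its r with bta-mir-2284y on these heifers, so this rank is not independent of that choice. The 5 heifers with 0 read pairs of SCN11A, AI-preg 114, NB-preg 108 and non-pregnant 94, 107 and 113, had shares of 75.5 to 92.6%, and a count of 0 allowed them up to 0.129 to 0.368 CPM. The other heifers held 1 to 158 read pairs, at most 4.04 CPM in AI-preg heifer 120. Of the other paired genes, GNPNAT1 had an r of -0.535 and VNN2 of 0.573 with the share, and the 4 genes paired with bta-mir-2285z lay between -0.356 and 0.140. The part of the share in these correlations was not tested further.

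Past the study's limit of 0.85 on |r|, the 10942 PWBC genes kept (a minimum of 2 CPM in at least 5 libraries) gave 3 pairs with the members, among 32826 (0.00914%). Over all plasma and PWBC genes, 757 of 11883012 pairs (0.00637%) passed, so the members' share was near that background. The 3 genes were SAYSD1 and FBXO15 for bta-mir-2285z and SCN11A for bta-mir-2284y. The other paired genes, listed by the study past this limit, fell short of it here (GNPNAT1 0.809, VNN2 -0.830, RUFY2 0.833 and HACD3 0.844). The study reduced its data to miRNAs and protein-coding genes before scaling, whereas totals here are of all kept genes. The limit is thus applied to values on another scale than the study's. With ENSBTAG00000037264 left out, SAYSD1 alone remained (0.00305%, background 0.00257%). With single heifers left out the counts moved to 0 to 40 genes for bta-mir-2285t (40 without NB-preg heifer 111), 2 to 22 for bta-mir-2285z (22 without NB-preg heifer 116) and 1 to 8 for bta-mir-2284y (8 without AI-preg heifer 92).

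With ENSBTAG00000037264 left out, the plasma genes most like each member were also read out, as a description. For bta-mir-2285t it was RPL36, a ribosomal protein gene, with an r of 0.815, followed by 0.754 and 0.744 for genes without a symbol in the sources used here. For bta-mir-2284y it was RXRA, a retinoid receptor gene, at 0.752. On this scale the counts of bta-mir-2284y varied no more than counting error alone (index 0.488), which limits every r of this member here. The 3 closest to bta-mir-2285z, at 0.818, 0.788 and 0.746, had no symbol. The median r over the other plasma genes was between -0.07 and 0.00 for each member. In PWBC, the largest |r| was 0.786 for bta-mir-2285t and 0.804 for bta-mir-2284y, both for genes without a symbol, and 0.860 for bta-mir-2285z, which was SAYSD1.

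Of the miRNAs that mark blood cells and liver, few had an identifier in the sources used here. For red cells (miR-451, miR-486, miR-144, miR-16a and miR-16b) it was 0 of 5, for platelets (miR-223, miR-126 and miR-191) 0 of 3, for white blood cells (miR-150, miR-142, miR-155 and miR-146a) 1 of 4 and for liver (miR-122) 1 of 1. The summed level of the red cell and platelet lists could thus not be given. The liver miRNA bta-mir-122 ran from 0.235 to 62.8 CPM in AI-preg, 0.884 to 9.96 CPM in NB-preg and 0.332 to 4.76 CPM in non-pregnant heifers. Its r over 17 heifers was 0.714 with bta-mir-2285t, 0.302 with bta-mir-2285z and 0.801 with bta-mir-2284y, and 0.369, -0.0470 and 0.410 with ENSBTAG00000037264 left out. For bta-mir-146a, an miRNA of leukocytes that ran from 0 to 21.0 CPM, r with the members was 0.243, -0.296 and 0.252, and -0.0779, -0.498 and -0.428 with ENSBTAG00000037264 left out. The part of these cells in the members' levels was not tested.

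Of the members, bta-mir-2285t alone was also counted in the mRNA libraries of PWBC. There it held 0 to 326 read pairs and 1019 in all, in a library type made from mRNA and counted by strand. MIR2285T lies within FCGR2B, and whether these read pairs came from the miRNA or from a longer transcript was not tested. AI-preg heifers had 0, 0, 1.57, 3.83, 3.92 and 4.86 CPM, NB-preg heifers 0.0666 to 3.51 CPM (median 1.30 CPM) and non-pregnant heifers 0, 0, 0.368, 0.946 and 4.32 CPM. The groups overlapped. The 4 heifers at 0, AI-preg 114 and 119 and non-pregnant 94 and 115, would have held 18.9 to 57.8 read pairs at the mean rate of all heifers, and a count of 0 allows them 0.121 to 0.369 CPM. bta-mir-2285z, bta-mir-2284y and ENSBTAG00000037264 were at 0 in all 17 PWBC libraries, which allows each up to 0.0448 to 0.719 CPM by library.

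No relation passed the test between the CPM of read pairs counted on bta-mir-2285t in PWBC, whose source was not tested, and its plasma CPM. Across 17 heifers, r between both was 0.352 (permutation p = 0.165) and rho 0.461 (permutation p = 0.0628), and with ENSBTAG00000037264 left out of the plasma total 0.427 (permutation p = 0.0861) and 0.453 (permutation p = 0.0679). The adjusted permutation p, over 3 relations with the PWBC total among them, was 0.165 for each r and 0.0788 for each rho. AI-preg heifer 119 had 0 read pairs in PWBC and the second highest plasma level, 6.10 CPM, whereas NB-preg heifer 111 had 3.51 CPM in PWBC and 0.497 CPM in plasma. This relation was computed after the PWBC counts had been seen.

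**Figure D5:**
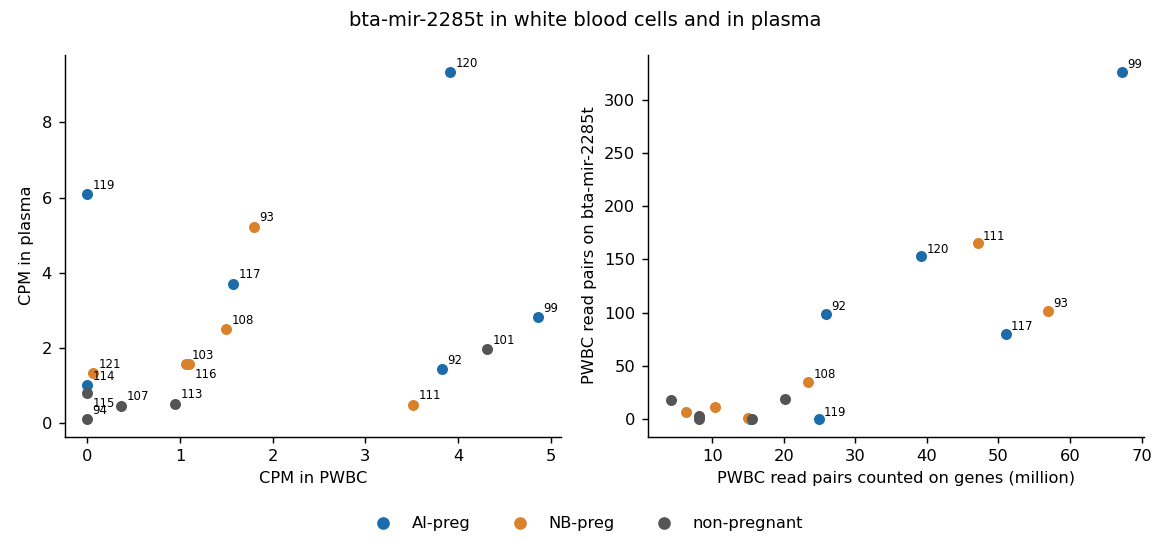
bta-mir-2285t in PWBC libraries, with its plasma CPM against its PWBC CPM (left) and its PWBC read pairs against the read pairs counted in the library (right, axis scaled as marked), 1 point per heifer, coloured by group. Heifer 119 has 0 read pairs in PWBC at 6.10 CPM in plasma, and heifer 99 has the most, 326. MIR2285T lies within FCGR2B, and the source of the PWBC read pairs was not tested.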

How the data were processed

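The authors deposited counts of reads per gene for 17 plasma (single reads, small RNA) and 17 PWBC libraries (read pairs, mRNA), without normalization or a filter. Per the labels and the study's methods, reads were aligned with HISAT2 2.1.0 to ARS-UCD1.2, reads with several alignments or 5 or more mismatches were removed, duplicates were left out, and featureCounts 1.6.0 (a later release in the study's code) counted the rest, by strand for PWBC only. The plasma reads on ENSBTAG00000037264 are too many for duplicates to have all been left out by start position, and how duplicates were marked is not stated. Plasma genes over 1 CPM and PWBC genes of at least 2 CPM in 5 or more libraries were kept, and totals were sums over kept genes. Names came from the study's supplementary tables, which list 2335 symbols and 119 miRNA identifiers. RefSeq's ARS-UCD2.0 table gave only names and overlaps, since it holds 0 of the deposited identifiers and is of another build.

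Counts were tested with edgeR 4.0.16 (quasi-likelihood, robust, 3 groups in 1 fit, no scaling factors) with Benjamini-Hochberg adjustment and with DESeq2 1.42.0, under R 4.3.3. SEs are the log2 fold change over the square root of F. Correlations used log2(CPM + 1) with 100000 permutations (Python 3.11.15, numpy 2.4.6, scipy 1.17.1), and exact permutations within groups of 6. Scripts were tested on simulated data. Alternatives were other totals, TMM, DESeq2, the likelihood ratio test, other filters, pseudocount 0.1, Spearman's rho, limits of 0.8 and 0.9 on |r| and each heifer left out. Intervals and floors (3 counts) cover counting error only.

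The members, lists, named genes and tests were chosen with earlier results of these data known. Named genes are the members, ENSBTAG00000037264, the 7 paired PWBC genes, marker miRNAs and, for each member, the 3 PWBC and 3 plasma genes with the largest r, named where a symbol was at hand. Each library is a separate heifer. Fold changes of family genes beyond the 3 members were not analysed here.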

Additional observations from a re-analysis of the deposited data

Results flagged for a closer look

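In 2 cases a value stood apart within a group of heifers, out of 24 groups of values checked, of which chance alone sets apart about 1 in 20. NB-preg heifer 116 had a log2(CPM + 1) of bta-mir-2285z of 7.67 with ENSBTAG00000037264 left out of the total, against 3.40 to 4.76 in the other NB-preg heifers. NB-preg heifer 93 had a share of ENSBTAG00000037264 of 51.6%, against 76.8 to 90.0% in the other NB-preg heifers. Outside the plasma measurement, bta-mir-2285t was counted in PWBC libraries, at up to 4.86 CPM in AI-preg heifer 99, although those libraries were made from mRNA. MIR2285T lies within FCGR2B, and the source of these read pairs was not tested.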

How the results depend on the processing

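No paired analysis was possible because the groups compared share no heifer and the heifer numbers pair only a plasma with a PWBC library. The members rested on few reads, so depth limits every value of bta-mir-2284y. The number of genes called for AI-preg against non-pregnant went from 0 to 1 with DESeq2, 1 with the likelihood ratio test and 2 without a filter, and for AI-preg against NB-preg to 2 without a filter; with single heifers left out it was 0 to 0 in each contrast. The AI-preg minus NB-preg log2 fold change turned negative for bta-mir-2285z with DESeq2 (-0.80), ENSBTAG00000037264 left out (-0.82), named miRNAs alone (-0.46) and TMM (-0.70), and for bta-mir-2284y (-0.17, -0.13, -0.011 and -0.11). With TMM, bta-mir-2284y was at -0.087 for AI-preg against non-pregnant. The causes were not tested. With single heifers left out, the 3 contrasts in the order AI-preg against NB-preg, AI-preg against non-pregnant and NB-preg against non-pregnant ran from 0.21 to 0.87, 0.44 to 1.34 and -0.087 (without heifer 93) to 0.78 for bta-mir-2284y, from 0.48 to 1.39, 1.96 to 3.02 and 0.95 to 2.15 for bta-mir-2285t, and from -0.15 (without heifer 120; -0.02 without heifer 103) to 0.92, 0.92 to 1.66 and 0.30 to 1.51 for bta-mir-2285z. The difference in share of ENSBTAG00000037264 ran from -15.4 to -6.43, -16.0 to -8.26 and -5.93 to 3.46 percentage points, and the last turned positive without heifers 93, 107 (0.0713) and 113 (1.33).

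In the order ENSBTAG00000037264 left out, named miRNA total and TMM in both tables, r with the share was -0.276, -0.541 and -0.323 for bta-mir-2284y, -0.0571, -0.219 and -0.0914 for bta-mir-2285t and 0.328, 0.189 and 0.364 for bta-mir-2285z; r of bta-mir-2285t was 0.346, 0.389 and -0.00739 with bta-mir-2284y and 0.524, 0.497 and 0.431 with bta-mir-2285z; and r of bta-mir-2285z with the log2 total was 0.0206, 0.108 and 0.165 (0.0884 for bta-mir-2284y with TMM). With pseudocount 0.1, r of bta-mir-2285t was 0.546 with bta-mir-2285z and -0.558 with the share (adjusted permutation p = 0.0515 for both), and rho with the share was -0.473. Without single heifers r with the share ran from -0.919 to -0.857 for bta-mir-2284y, -0.653 to -0.489 for bta-mir-2285t and -0.399 to -0.0811 for bta-mir-2285z. With the total it ran from -0.501 to -0.220, -0.684 to -0.257 (past the threshold without heifers 99, 114, 117, 93, 116 or 115) and -0.387 to 0.110 (without heifer 120). Between members it ran from 0.539 to 0.724 for bta-mir-2285t with bta-mir-2284y, 0.478 to 0.685 for bta-mir-2285t with bta-mir-2285z and 0.333 to 0.549 for bta-mir-2285z with bta-mir-2284y, which passed without heifer 116. The r of bta-mir-2285t with the share lost its call without heifers 119, 120, 93, 94, 107 or 113.

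Of the paired genes, and in the same order, r was 0.632, 0.709 and 0.598 for SCN11A and 0.624, 0.704 and 0.560 for RUFY2. It was -0.769 and -0.802 for FBXO15 (-0.783 with pseudocount 0.1, and -0.824 with TMM). With ENSBTAG00000037264 left out and with TMM it was 0.670 and 0.509 for GNPNAT1, -0.647 and -0.623 for VNN2 and 0.736 and 0.687 for HACD3, and with TMM -0.805 for SAYSD1. With pseudocount 0.1, VNN2 (-0.852), RUFY2 (0.859) and HACD3 (0.860) went past the limit of 0.85 on |r|. Without single heifers it ran from 0.879 to 0.936 for SCN11A, 0.777 to 0.872 for GNPNAT1, -0.855 to -0.796 for VNN2, -0.904 to -0.844 for FBXO15, 0.791 to 0.866 for HACD3, 0.776 to 0.864 for RUFY2 and -0.929 to -0.885 for SAYSD1. The PWBC genes past the limit on |r| went from 1 to 2 at 0.8, to 0 at 0.9, and to 0 with each other total for bta-mir-2284y; from 0 to 14 at 0.8, 4 with pseudocount 0.1 and 5 with Spearman's rho for bta-mir-2285t; and from 2 to 21 at 0.8, 1 at 0.9, 3 with pseudocount 0.1, 1 with ENSBTAG00000037264 left out, 1 with the named miRNA total, 0 with TMM and 11 with Spearman's rho for bta-mir-2285z. With single heifers left out they ran from 1 to 8 (8, 5, 2 and 2 without heifers 92, 99, 117 and 111), 0 to 40 (1 to 3 without heifers 92, 117, 103, 108, 121 or 115, and 40 without heifer 111) and 2 to 22 (4 to 11 without heifers 92, 114, 117, 119, 93, 108, 111, 121, 107, 113 or 115, and 22 without heifer 116).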
